A study of Mus musculus with 10 samples.

Results

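The genes described here are 10 transcription factors of the rhombic lip and of the glutamatergic neurons that arise from it: Atoh1, Lmx1a, Pax6, Neurod1, Barhl1, Barhl2, Tbr1, Eomes, Lhx2 and Lhx9. They were taken by symbol from a table of 22552 genes measured by RNA-seq in mouse cerebella dissected at E13.5, and all 10 were found. Of the 8 RNA-seq libraries, 4 carried an Ezh2 deletion and 4 were wild type, all on a mixed C57BL/6;129 background. In the deletion embryos a floxed Ezh2 allele was recombined by Cre expressed from Pax7, and a Rosa-YFP allele was bred in to guide the dissection. The labels do not say whether wild type embryos carried a floxed or a Rosa-YFP allele, nor which libraries came from separate embryos, so the p-values refer to the spread among these libraries, some of which may be technical. Cells in which Pax7-driven Cre was never active keep Ezh2. A further 2 samples, of H3K27me3 ChIP-seq, were not analysed here.

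The rhombic lip is the dorsal germinal zone along the edge of the fourth ventricle, and in the cerebellum it is the source of the glutamatergic lineages. Its Atoh1-expressing progenitors give rise first to neurons of the cerebellar nuclei and then to granule cells, while unipolar brush cells leave it later. Ezh2 is the catalytic subunit of Polycomb repressive complex 2 in most dividing cells and methylates histone H3 to H3K27me3, a repressive mark, often at CpG-rich promoters of developmental transcription factors.

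The comparison asked whether these lineage factors differed between Ezh2 deletion and wild type. Barhl2 and Lhx2 rose, to 4.99 and 2.54 times their wild type means, and the other 8 factors did not pass the test. Levels are in RPKM (reads scaled to gene length and to mapped reads), and differences were tested on log2(RPKM + 0.25) with limma over 14279 genes, with adjusted p under 0.05 as the threshold. Of the 10 factors 2 were higher and 0 lower, where 2.71% of all tested genes were higher, 0.742% lower and 3.45% changed in either direction. The median log2 difference was 0.16 for the 10 factors and -0.01 for all tested genes, and it was positive in 6 of the 10. Barhl2 and Lhx2 were higher in each deletion library than in each wild type library, which held for 6.79% of tested genes, and no factor had them all below, which held for 5.61%. In these bulk samples, more cells of a type and more RNA per cell cannot be told apart.

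**Figure D1:**
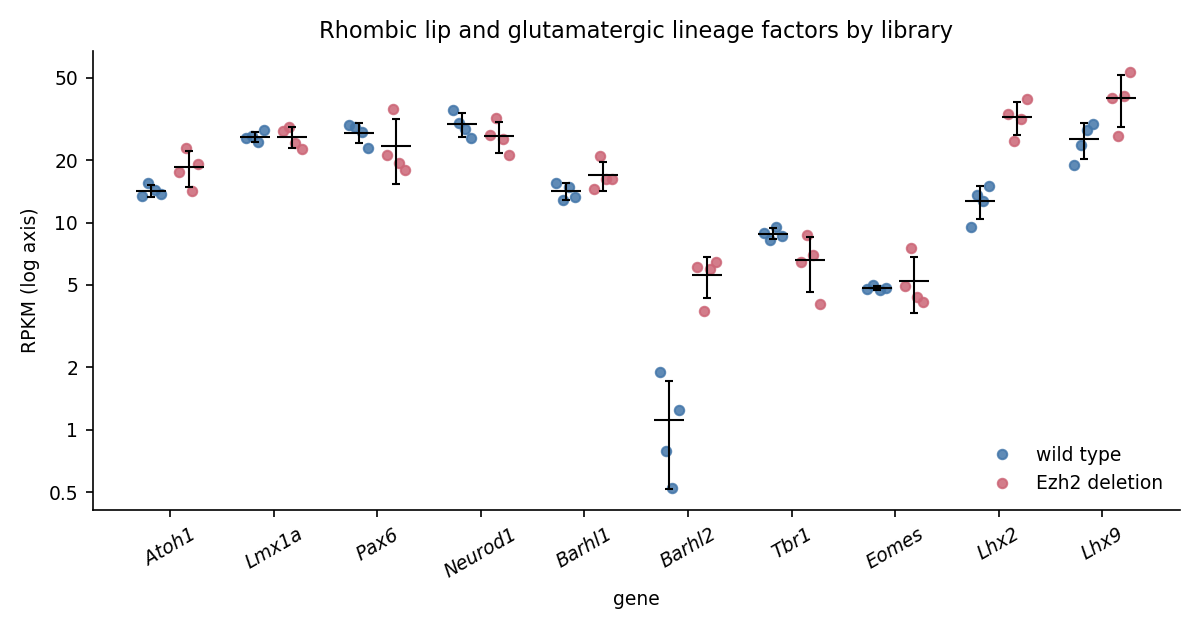
RPKM (log axis) of the 10 factors in each library. Points are libraries 1 to 4 from left to right, bars are the mean and SD (n = 4), and only Barhl2 and Lhx2 have deletion libraries that all lie above the wild type libraries.

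The libraries differed in ways that touch these genes. Ezh2 RNA fell to 69.3% of the wild type mean (limma adjusted p = 0.0074), a value that includes any exons left in the recombined allele. Ezh2 deletion 4 kept the most, 64.4 RPKM against a wild type mean of 78.7 RPKM, and did not pass on its own against wild type (log2 difference -0.29, limma adjusted p = 0.146). Relative depth, read from the steps of 1 read in low genes, was 1 to 1.35 in wild type and 1.25 to 2.11 in Ezh2 deletion, highest in Ezh2 deletion 2. Y-linked RNA was present in the wild type libraries and in Ezh2 deletion 4 (summed level 42.7 to 50.8 RPKM) and did not exceed 0.134 RPKM in the other 3 deletion libraries, in which Xist reached 54.1 to 94.5 RPKM, so sex and genotype overlap. Defining genes of the cerebellar territory were present throughout, with a summed level of 308 to 422 RPKM in wild type and 299.7 to 359.8 RPKM in Ezh2 deletion, and 1 of 7 was higher (Pax2) and 1 lower (Skor2). Of 8 tested midbrain markers out of 10, Lmx1b and Pou4f1 were higher, and the summed level was 40.7 to 55.3 RPKM in wild type and 75.5 to 122.6 RPKM in deletion. Choroid plexus and roof plate markers summed to at most 6.16 RPKM in wild type and to 163.7 RPKM in Ezh2 deletion 2, with 0 of 5 tested called. Markers of mesenchyme and meninges also peaked in Ezh2 deletion 2, at 17.2 RPKM against 2.22 to 6.59 RPKM in wild type (0 of 4 tested called). Of the forebrain markers, Emx1, at 0 throughout wild type, reached 0.187 to 0.494 RPKM in deletion, Emx2 was called higher, and Neurod6, the most abundant, was not called. Brainstem markers, 3 of 5 tested called higher, summed to 3.20 to 11.4 and 11.94 to 14.02 RPKM, and vascular and erythroid markers had 0 called of 4 and 8 tested.

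In wild type, Neurod1, Pax6, Lmx1a and Lhx9 were the most abundant of the 10, with mean levels of 29.8, 27.2, 26.0 and 25.2 RPKM. Neighbours among these overlapped across libraries, and all lay apart from the genes below. Atoh1, Barhl1 and Lhx2 followed at 14.3, 14.2 and 12.7 RPKM, again overlapping, and Lhx2 overlapped Tbr1 at 8.86 RPKM. Eomes (4.84 RPKM) and Barhl2 (1.12 RPKM) each lay apart from the gene above. In Ezh2 deletion the order changed at both ends. Lhx9 and Lhx2 stood first, at 40.1 and 32.3 RPKM, though the range of Lhx2 overlapped that of Neurod1, and Barhl2, Tbr1 and Eomes lay together at 5.57, 6.56 and 5.24 RPKM. The 10 levels summed to between 163.1 and 165.1 RPKM in the wild type libraries and to between 189 and 211 RPKM in the deletion libraries. Lhx2 and Lhx9, of which Lhx9 did not pass, made up most of this rise, while Pax6, Neurod1, Lmx1a and Tbr1 had lower means in deletion.

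Atoh1 and Lmx1a represent the rhombic lip itself. Atoh1 is the basic helix-loop-helix factor that defines its neurogenic progenitors. Libraries 1 to 4 of wild type held 13.4, 15.5, 14.4 and 13.8 RPKM, against 17.5, 23.0, 14.2 and 19.2 RPKM in libraries 1 to 4 of Ezh2 deletion, and all values below follow this order. Ezh2 deletion 1, 2 and 4 were above all wild type libraries and Ezh2 deletion 3 lay among them. The log2 difference was 0.35 (95% interval 0.07 to 0.63, unadjusted; limma adjusted p = 0.19) and did not pass. Without Ezh2 deletion 3 it was 0.47 and passed narrowly (limma adjusted p = 0.0499). That fit removed the only deletion library within the wild type range, and Atoh1 did not pass in the other 20 of 21 alternative fits. Lmx1a is a LIM homeodomain factor of the roof plate and of rhombic lip cells. Its wild type libraries held 25.5, 26.1, 24.4 and 27.8 RPKM and its deletion libraries 27.8, 29.0, 24.2 and 22.6 RPKM. The groups overlapped, and the log2 difference of -0.01 had an interval of -0.19 to 0.17 (limma adjusted p = 0.968).

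Pax6, Neurod1, Barhl1 and Barhl2 belong to the granule cell lineage or to neurons descending from Atoh1 progenitors. Pax6, a paired homeodomain factor of the rhombic lip and of granule cell precursors, measured 29.5, 29.0, 27.4 and 22.9 RPKM in wild type against 21.2, 35.5, 19.5 and 17.9 RPKM in Ezh2 deletion. Ezh2 deletion 2 held the highest level of all libraries, and the other 3 deletion libraries lay below every wild type library. Over all libraries the log2 difference was -0.26 (interval -0.74 to 0.23; limma adjusted p = 0.571). Without Ezh2 deletion 2 it was -0.47 and passed (SE 0.096, limma adjusted p = 0.0358). That fit removed the only deletion library above wild type, and Pax6 did not pass in the other 20 of 21 alternative fits. Pax6 overlaps Pax6os1 and Elp4 in RefSeq, and the use of strand in counting is not stated, so its reads and theirs may be mixed. The same holds for Lhx2 and Eomes, which overlap 2 and 1 long non-coding RNA genes of RefSeq.

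Neurod1, a factor of differentiating granule neurons, measured 34.99, 30.4, 28.2 and 25.6 RPKM in wild type against 26.4, 32.1, 25.4 and 21.2 RPKM in deletion. These ranges overlapped (log2 difference -0.19, interval -0.48 to 0.11, limma adjusted p = 0.494). Barhl1, a BarH-like homeodomain factor needed for the survival of granule cells, measured 15.6, 12.8, 14.9 and 13.3 RPKM in wild type against 14.6, 20.9, 16.2 and 16.2 RPKM in deletion. Here 3 of the 4 deletion libraries were above the wild type range, and the log2 difference of 0.25 did not pass (interval 0.01 to 0.49, unadjusted; limma adjusted p = 0.266).

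Barhl2 is the paralogue of Barhl1, known from dorsal spinal cord, diencephalon and retina. Its level was 1.90, 0.792, 0.524 and 1.25 RPKM in wild type against 6.09, 3.73, 5.98 and 6.47 RPKM in Ezh2 deletion. The lowest deletion library was 1.97 times the highest wild type library. The means were 1.12 ± 0.600 and 5.57 ± 1.24 RPKM (SD, n = 4), and limma put the log2 difference at 2.17 (SE 0.309, adjusted p = 0.0061). It passed in each of the 8 fits that left out 1 library. Among libraries with Y-linked RNA, that is Ezh2 deletion 4 against wild type, it was 2.40 higher without passing (limma adjusted p = 0.1002). That comparison has 1 deletion library and takes its spread from wild type alone.

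Tbr1, Lhx2 and Lhx9 mark neurons of the cerebellar nuclei, and Eomes marks unipolar brush cells and some nuclear neurons. Tbr1, a T-box factor of medial nuclear neurons, measured 8.94, 8.28, 9.57 and 8.64 RPKM in wild type against 6.47, 8.72, 7.01 and 4.06 RPKM in Ezh2 deletion. Ezh2 deletion 2 was within the wild type range and the other 3 were below it. The log2 difference was -0.47 (interval -0.90 to -0.03, unadjusted; limma adjusted p = 0.247) and did not pass. Ezh2 deletion 4 against the 4 wild type libraries gave -1.08, again with the spread of wild type alone. Of 21 alternative fits this was the only one in which Tbr1 passed. Eomes, a related T-box factor, measured 4.76, 5.01, 4.73 and 4.85 RPKM in wild type against 4.93, 7.53, 4.36 and 4.12 RPKM in deletion. Ezh2 deletion 2 was above the wild type range and Ezh2 deletion 3 and 4 below it, and the log2 difference of 0.07 had an interval of -0.29 to 0.43 (limma adjusted p = 0.861).

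Lhx2, a LIM homeodomain factor that early nuclear neurons share with cortex and midbrain, measured 9.52, 13.53, 12.8 and 15.1 RPKM in wild type against 33.6, 24.9, 31.5 and 39.4 RPKM in Ezh2 deletion. Every deletion library was above every wild type library. The means were 12.7 ± 2.34 and 32.3 ± 5.98 RPKM (SD, n = 4), a rise of 1.33 on the log2 scale (SE 0.166, limma adjusted p = 0.0034). It passed with any 1 library left out. Ezh2 deletion 4 alone was 1.63 above wild type (limma adjusted p = 0.0315, with the spread of wild type alone). Lhx9, the paralogue of Lhx2, measured 19.0, 23.8, 28.04 and 29.99 RPKM in wild type against 39.9, 26.2, 40.9 and 53.5 RPKM in deletion. Ezh2 deletion 2 lay within the wild type range and the other 3 libraries above it. The log2 difference was 0.64 (interval 0.10 to 1.18, unadjusted; limma adjusted p = 0.209) and did not pass, and it was 0.83 without Ezh2 deletion 2 (limma adjusted p = 0.0516).

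**Figure D2:**
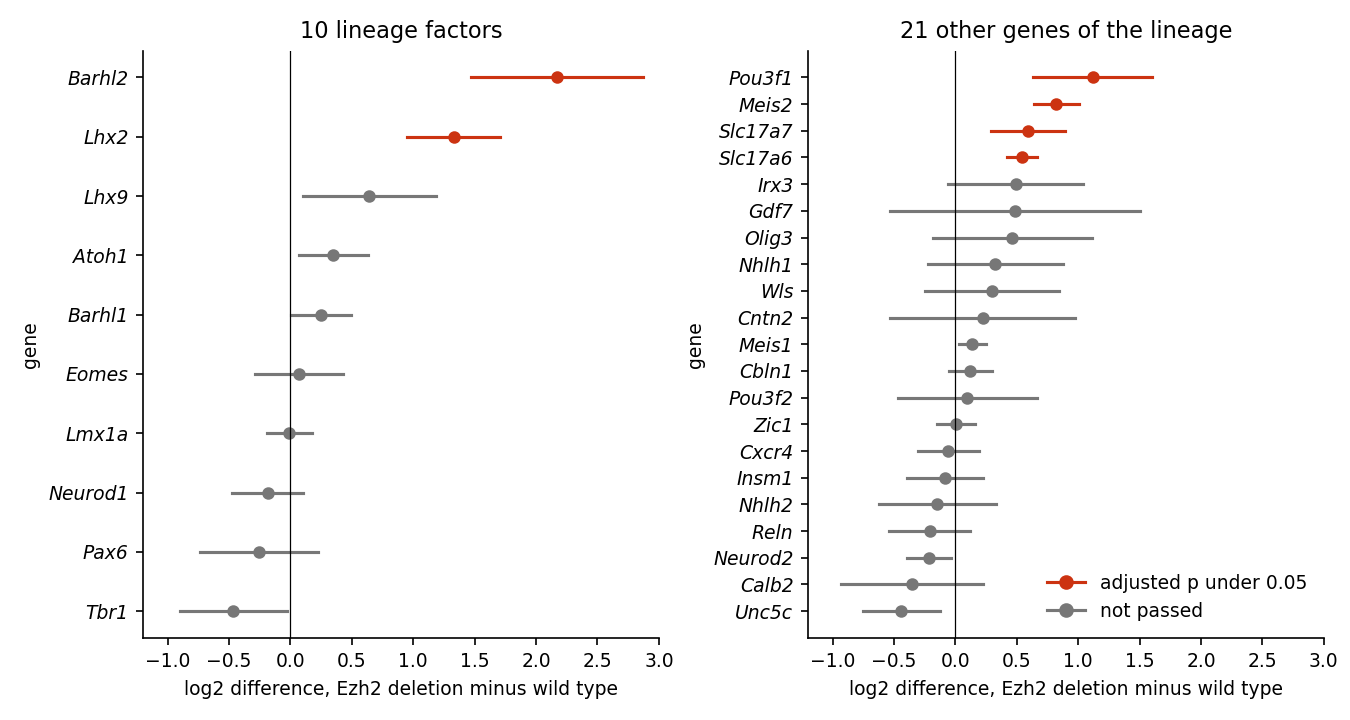
Log2 differences (Ezh2 deletion minus wild type, on log2(RPKM + 0.25)) with unadjusted 95% intervals from limma, for the 10 factors and for 21 other genes of the lineage. Genes with adjusted p under 0.05 are red; these are Barhl2 and Lhx2 on the left and Pou3f1, Meis2, Slc17a7 and Slc17a6 on the right.

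The 2 factors that passed each have a close paralogue among the 10, and the ratio of paralogues within a library does not depend on the scaling of that library. The numerators were chosen because they had passed, so the ratios largely restate those differences and are given as a description, with no test. Lhx2 was between 0.456 and 0.569 times the level of Lhx9 in the wild type libraries and between 0.735 and 0.951 times in the deletion libraries. The mean log2 ratio was -0.98 ± 0.131 and -0.28 ± 0.164 (SD, n = 4), a difference of 0.70. Barhl2 was between 0.0352 and 0.121 times the level of Barhl1 in wild type and between 0.179 and 0.418 times in deletion. The difference in log2 ratio was 2.20, from -3.82 ± 0.780 to -1.62 ± 0.576 (SD, n = 4), where the log2 differences of Barhl2 and Barhl1 themselves were 2.17 and 0.25. In both pairs the 4 deletion ratios lay above the 4 wild type ratios.

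**Figure D3:**
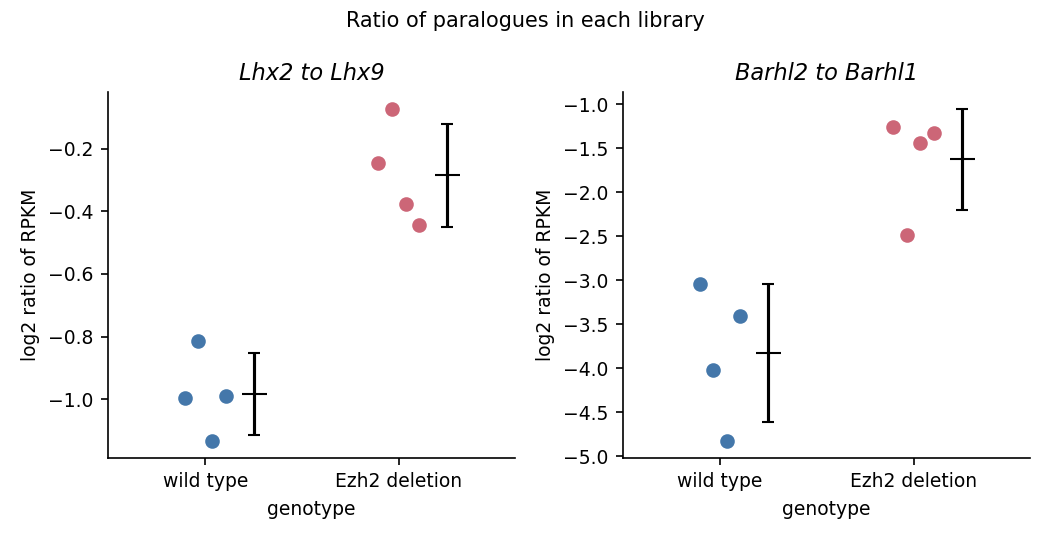
Log2 ratio of RPKM within each library for Lhx2 to Lhx9 and Barhl2 to Barhl1. Points are libraries and bars the mean and SD (n = 4); the groups do not overlap in either pair.

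The promoters of these paralogue pairs are shown because they differ in CpG dinucleotides. The 10 genes were not chosen by this sequence feature, but what is shown was, and a link between it and the RNA differences was not tested. RefSeq gave windows of 300 bases (250 before to 50 after a transcription start, build GRCm38.p6) for all 10 factors. The outermost window of each gene in the 2 pairs follows, 5′ to 3′, with CpG dinucleotides in capitals.
Barhl2 (chr5:106458117-106458416, minus strand): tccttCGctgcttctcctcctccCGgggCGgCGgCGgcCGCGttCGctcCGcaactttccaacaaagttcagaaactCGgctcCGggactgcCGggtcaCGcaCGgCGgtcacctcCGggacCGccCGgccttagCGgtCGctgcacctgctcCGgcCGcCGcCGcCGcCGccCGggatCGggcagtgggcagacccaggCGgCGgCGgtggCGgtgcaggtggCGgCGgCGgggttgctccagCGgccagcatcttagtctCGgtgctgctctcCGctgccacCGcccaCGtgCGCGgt
Barhl1 (chr2:28916619-28916918, minus strand): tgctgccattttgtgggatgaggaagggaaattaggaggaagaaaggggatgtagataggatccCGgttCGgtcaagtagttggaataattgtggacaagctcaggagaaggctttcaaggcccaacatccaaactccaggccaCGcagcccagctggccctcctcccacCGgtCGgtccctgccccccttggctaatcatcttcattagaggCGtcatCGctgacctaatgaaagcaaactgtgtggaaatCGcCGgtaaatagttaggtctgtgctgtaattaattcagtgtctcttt
Lhx2 (chr2:38339031-38339330, plus strand): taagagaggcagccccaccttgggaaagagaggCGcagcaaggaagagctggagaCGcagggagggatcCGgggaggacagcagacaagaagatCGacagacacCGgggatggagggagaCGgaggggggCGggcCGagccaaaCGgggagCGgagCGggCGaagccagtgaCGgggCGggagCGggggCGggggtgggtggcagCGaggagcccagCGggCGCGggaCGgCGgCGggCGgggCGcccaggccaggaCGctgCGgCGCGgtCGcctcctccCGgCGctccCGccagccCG
Lhx9 (chr1:138842395-138842694, minus strand): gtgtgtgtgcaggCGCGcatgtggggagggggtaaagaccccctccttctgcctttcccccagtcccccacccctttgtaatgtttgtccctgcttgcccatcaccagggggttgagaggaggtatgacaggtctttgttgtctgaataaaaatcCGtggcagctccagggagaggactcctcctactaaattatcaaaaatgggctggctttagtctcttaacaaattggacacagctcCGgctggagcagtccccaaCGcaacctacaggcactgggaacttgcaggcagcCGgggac

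The Barhl2 window held 42 CpG dinucleotides and that of Lhx2 34, the highest counts among the outermost windows of the 10 factors. As many or more were found in 3.03% and 7.73% of all 32851 windows in the RefSeq table. Their paralogues held fewer, 9 in Barhl1 and 6 in Lhx9, where the median over all windows was 7. A second annotated start gave 29 in Lhx2 and 14 in Barhl1. Counts in the other outermost windows were 26 in Neurod1, 20 in Atoh1, 18 in Pax6, 12 in Lmx1a, 10 in Eomes and 7 in Tbr1, and none of these 6 genes passed the test. The observed to expected CpG ratio, which allows for the content of C and G, set them less apart, at 1.03 in Barhl2 and 0.885 in Lhx2 beside 0.84 in both Atoh1 and Neurod1 and 0.998 at a second start of Pax6. The E-box CAGCTG, a form bound by Atoh1 and other basic helix-loop-helix factors and its own reverse complement, occurred once in each Barhl1 window and in no window of the other 9 factors. It was present in 16.3% of all windows. With 10 genes these counts are a description, and H3K27me3 at these promoters was not analysed here.

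**Figure D4:**
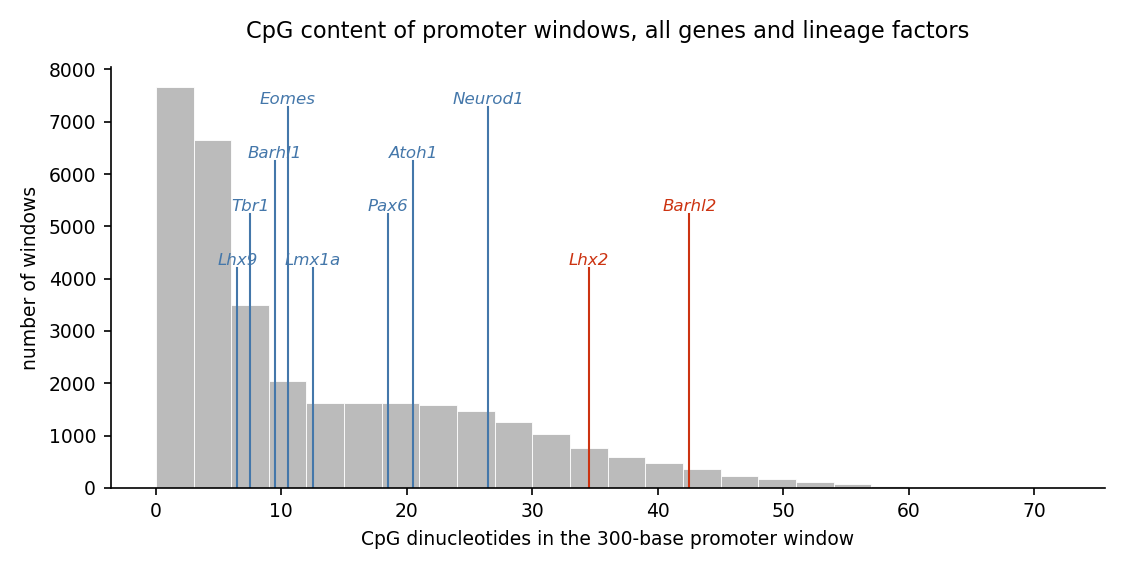
Number of RefSeq promoter windows (300 bases) by their count of CpG dinucleotides, in bins of 3. Lines mark the outermost window of each of the 10 factors, with the 2 that rose in Ezh2 deletion (Barhl2 at 42, Lhx2 at 34) in red and the others, at 6 to 26, in blue.

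The deletion libraries differed among themselves, and Ezh2 deletion 2 and 4 lay at opposite ends for most of the 10 genes. Among the deletion libraries, Ezh2 deletion 2 held the highest level of Atoh1, Pax6, Barhl1, Lmx1a, Neurod1, Tbr1 and Eomes and the lowest of Barhl2, Lhx2 and Lhx9. Ezh2 deletion 4 held the highest level of Barhl2, Lhx2 and Lhx9 and the lowest of Pax6, Lmx1a, Neurod1, Tbr1 and Eomes. Over all tested genes, Ezh2 deletion 2 was the highest of the 4 in 29.3% and the lowest in 24.9%. Ezh2 deletion 4 was the highest in 28.7% and the lowest in 31.5%. The 3 factors lowest in Ezh2 deletion 2 and the 3 highest in Ezh2 deletion 4 are near these shares. The spread on the log2 scale was larger in deletion than in wild type for 8 of the 10 factors, with median SDs of 0.317 and 0.149, against 58.4% of all tested genes. Without Ezh2 deletion 2 it was larger for 4 of the 10, against 51.6% of all tested genes, and the median SD in deletion was 0.158. Ezh2 deletion 2 was the highest or lowest deletion library for each of the 10, so leaving it out tends to narrow their spread. No other library was left out for comparison, and the fall is a description.

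Some markers of neighbouring tissue differed between the same libraries, and others did not. In Ezh2 deletion 2, Ttr, a choroid plexus gene, was at 151.7 RPKM (at most 16.2 RPKM in the other deletion libraries), and Wls and Gdf7, genes of the roof plate and rhombic lip edge, were at 57.6 and 2.02 RPKM (at most 33.4 and 0.562 RPKM). Tal2, a midbrain gene, reached 9.02 RPKM in Ezh2 deletion 3 and 26.6 RPKM in Ezh2 deletion 4, and lay at no more than 1.44 RPKM in the other 6 libraries. Otx1, expressed in midbrain, was at 2.52 and 3.95 RPKM in these 2 libraries and at no more than 1.05 RPKM elsewhere. Otx2 rose in the same order, at 4.1, 14.7, 15.3 and 21.1 RPKM in Ezh2 deletion 1 to 4 (at most 7.55 RPKM in wild type). Pou4f1 and Lmx1b did not follow it: Pou4f1 was at 13.4 to 16.2 RPKM in all 4, and Lmx1b was lowest in Ezh2 deletion 4 (18.9 RPKM). Dmbx1, the most abundant midbrain marker, averaged 24.9 RPKM in wild type and 26.3 RPKM in deletion (limma adjusted p = 0.952). No deletion library exceeded its wild type maximum of 33.9 RPKM. Gata2 and Gata3 overlapped between genotypes and were not called. Gata3 was at 1.40 to 1.81 RPKM in deletion and at 0.110 to 1.76 RPKM in wild type. Of the 10 midbrain markers, 3, 6, 7 and 8 were above the highest wild type library in Ezh2 deletion 1 to 4. In Ezh2 deletion 2 and 3 the counts include Foxa2, near the floor at 0.0597 and 0.0168 RPKM (at most 0.0167 RPKM in wild type). The share of all tested genes above wild type was not counted for single libraries. The part of neighbouring tissue in the levels of the 10 factors was not tested. Lhx2 and Lhx9 are also expressed in midbrain, and Barhl2 is known from diencephalon. In Ezh2 deletion 1 the 3 were Lmx1b (28.6 RPKM), Pou4f1 (15.7 RPKM) and Foxa1 (0.277 RPKM), and the 10 markers summed to 82.4 RPKM. In Ezh2 deletion 1 and 2 alone against wild type the log2 differences were 1.99 for Barhl2 and 1.19 for Lhx2, and neither passed (limma adjusted p = 0.104 and 0.0540).

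**Figure D5:**
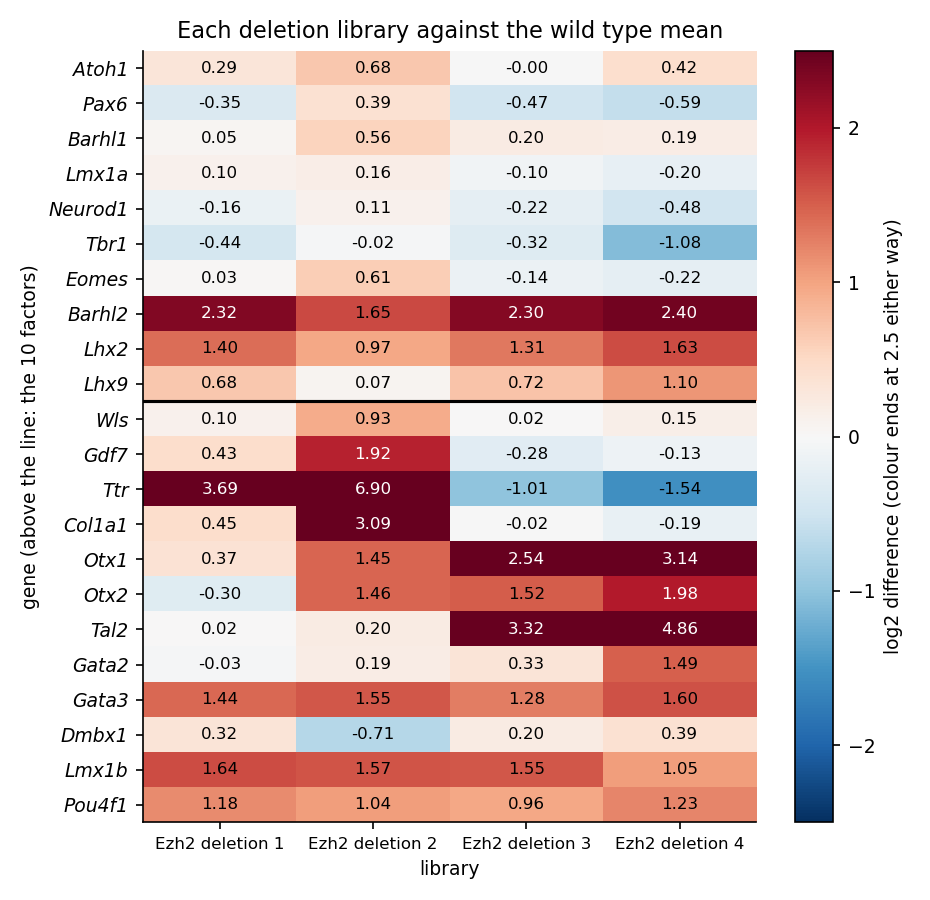
Log2 difference of each deletion library from the wild type mean, on log2(RPKM + 0.25), for the 10 factors (above the line) and for Wls, Gdf7, Ttr, Col1a1 and the 8 midbrain markers that were tested (below it). Numbers are the differences, and colour ends at 2.5 in either direction. Ezh2 deletion 2 is the highest deletion library for 7 factors and for Ttr, Wls, Gdf7 and Col1a1, and Ezh2 deletion 4 for Barhl2, Lhx2, Lhx9 and 7 of the 8 midbrain markers, all but Lmx1b.

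A list of 21 other genes of the rhombic lip and its neurons showed how far the rest of the lineage moved. All 21 were tested, and 4 rose and 0 fell, where 2.71% of all tested genes were higher and 0.742% lower. The median log2 difference was 0.14. The 4 were Slc17a6, Slc17a7, Meis2 and Pou3f1, and for each of them the 2 genotypes did not overlap. Slc17a6, the vesicular glutamate transporter VGLUT2 of nuclear neurons and early granule cells, ranged from 23.6 to 27.02 RPKM in wild type and from 36.6 to 39.4 RPKM in Ezh2 deletion. It rose by 0.55 on the log2 scale (SE 0.054, limma adjusted p = 4.6e-04), and it varied less among deletion libraries than any of the 10 factors did. Meis2, a homeodomain factor of nuclear neurons, ranged from 38.2 to 46.0 RPKM in wild type and from 67.3 to 82.9 RPKM in deletion (log2 difference 0.82, SE 0.082, limma adjusted p = 4.7e-04).

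Pou3f1, a POU factor, went from 5.71 ± 0.673 to 13.1 ± 4.19 RPKM (SD, n = 4; log2 difference 1.12, limma adjusted p = 0.0267), and it did not pass in 6 of the 8 fits that left out 1 library (limma adjusted p up to 0.0867). Its deletion libraries held 14.7, 8.29, 11.5 and 18.1 RPKM, lowest in Ezh2 deletion 2 and highest in Ezh2 deletion 4, as with Lhx2 and Lhx9. Slc17a7, the transporter VGLUT1 of mature granule cells, stayed low, from 0.292 to 0.564 RPKM (limma adjusted p = 0.0441), and did not pass when any of 7 libraries was left out. The most abundant genes of the list that did not pass were Zic1, a zinc finger factor of granule precursors (174 and 175 RPKM), Cbln1, a secreted synaptic organizer (84.0 and 91.4 RPKM), and Nhlh2 (85.5 and 77.7 RPKM in wild type and deletion). Unc5c, a netrin receptor of migrating granule cells, had all deletion libraries below all wild type libraries, which held for 5.61% of tested genes. Its mean was 29.5 RPKM in deletion against 40.1 RPKM in wild type. It did not pass (limma adjusted p = 0.138) and was named after its values were seen.

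The genes whose profiles over the 8 libraries were most like those of the 2 factors that rose were taken as the 3 with the smallest root mean square difference between centred log2(RPKM + 0.25) values. A similar rise in these genes follows from that choice, because the profiles span both genotypes. For Barhl2 they included Zfp503, a zinc finger co-repressor (0.343 log2 units), and Hmx3, a homeobox factor (0.4003). Zfp503 averaged 1.03 ± 0.382 RPKM in wild type against 5.31 ± 0.544 RPKM in deletion (SD, n = 4), levels close to those of Barhl2. For Lhx2 they were Cdh1, the adhesion protein E-cadherin (0.136), Flrt1, a leucine-rich transmembrane protein (0.162), and Dll3, a Notch pathway ligand (0.163). In wild type and deletion, Cdh1 was at 0.330 ± 0.0968 and 0.998 ± 0.206 RPKM and Flrt1 at 1.16 ± 0.272 and 2.86 ± 0.394 RPKM. Dll3 was at 5.05 ± 0.855 and 10.8 ± 2.43 RPKM (SD, n = 4). All of these levels were below those of Lhx2 in the same genotype.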

How the data were processed

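Polyadenylated RNA from E13.5 cerebella was sequenced, per the labels' protocols. The authors deposited RPKM per gene, 1 column for each library. Build mm9 and the tools Cuffdiff, TopHat, Bowtie and SICER are listed, for both assays together and with no version, per the submitters' processing notes. The annotation, strand use and handling of multi-mapping reads were not given in the sources used here, so values of overlapping genes and near-identical copies are uncertain.

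A count model was not used, since RPKM is normalized. Total depth is unknown, and relative depth came from the spacing of values in genes with a mean under 0.1 RPKM. Of 22552 genes, 3284 were at 0 in all libraries and 14279 with a mean of at least 0.25 RPKM were tested, two-sided, as log2(RPKM + 0.25). R 4.3.3 was used with limma 3.58.1 and statmod 1.5.0, with a mean trend and robust moderation in eBayes and Benjamini-Hochberg adjustment over all genes tested. This is a scale that understates the change of low genes. The fit was tested on simulated data. An exact permutation test planned for the ratios is not reported, since their numerators were chosen by the fit. No libraries held identical values. Groups and replicate numbers came from the sample titles, and deviations of same-numbered libraries correlated at no more than 0.0867.

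Named genes were the 10 factors, Ezh2, other lineage genes that passed or were most abundant, the 3 closest profiles to each factor that passed, and the most abundant gene of each marker list, some of which are not reported here. Further genes are named as markers after their values were seen. The factors and lists were chosen with earlier results of these data known. Alternatives covered pseudocount, filter, scaling, variance model, weights, a replicate block, each library left out and the threshold. Ezh2 deletion 1 and 2 alone was added after seeing the data.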

Additional observations from a re-analysis of the deposited data

Results flagged for a closer look

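Among 56 groups of 4 libraries (28 named genes in each genotype), 3 held a library far from the others by Dixon's criterion, where chance flags about 5% of groups. None of these was among the 10 lineage factors. Ttr was at 152 RPKM in Ezh2 deletion 2, and Col3a1, a collagen of mesenchyme, at 5.22 RPKM in the same library. Eif2s3y, a Y-linked gene, was at 21.7 RPKM in Ezh2 deletion 4 and at no more than 0.0621 RPKM in the other deletion libraries.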

How the results depend on the processing

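Barhl2 and Lhx2 were higher under all 21 alternatives, with log2 differences of 1.66 to 2.42 and 1.19 to 1.63. Barhl2 did not pass in Ezh2 deletion 4 against wild type, and neither passed in Ezh2 deletion 1 and 2 against wild type, where 0 of the 10 factors were called (fewer libraries; limma, unadjusted p of 0.0026 and 8.2e-04). The 10 factors gave 2 or 3 calls with any 1 library left out. Genes called numbered 493 over all libraries and 263 to 414 with 1 library left out, 314 in Ezh2 deletion 4 against wild type, 212 in Ezh2 deletion 1 and 2 against wild type and 201 at a threshold of 0.01. Other lineage genes called numbered 4, and 2 to 3 with 1 library left out, 2 in Ezh2 deletion 1 and 2 against wild type and 2 at a threshold of 0.01. Higher genes made up 387 of 493 calls, and 479 of 534 after removal of Xist, erythroid and Y-linked genes with rescaling.

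With 1 library left out, the difference in the log2 ratio of Lhx2 to Lhx9 was 0.63 to 0.75 and that of Barhl2 to Barhl1 1.86 to 2.48. Same-numbered libraries had correlations of deviations between 0.0034 and 0.0867, and the labels do not say whether they share more than a number. With a replicate block the ratio differences were 0.70 and 2.20, the fit over all genes called 353, and Slc17a7 was not called (limma adjusted p = 0.0951). Lmx1a, Eomes and Pax6, not called, changed sign under 7, 2 and 1 alternatives. Total depth is unknown, so no limit of detection is given for the low levels of Barhl2 in wild type.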
